A study of Mus musculus with 6 samples.

Results

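The 10 genes described here mark the muscular wall of the seminiferous tubule and the blood vessels of the testis. They were taken by name from the gene name column of the array files. Acta2, Myh11, Cnn1, Tagln and Des are smooth muscle genes, Pdgfra is the gene of a mesenchymal growth factor receptor, and Pecam1, Cdh5, Vwf and Tek are endothelial genes. They make up 10 of the 27376 gene names on the array and are read by 20 of its 41174 probes. Total RNA of whole testis from 3 Prss55-/- and 3 wt male mice, aged 6 to 8 weeks and of mixed 129Sv/C57BL/6 strain, was hybridized with a single dye, 1 array for each mouse. The Prss55-/- mice carry 2 disrupted alleles of the serine protease gene Prss55, made by homologous recombination and not restricted to a cell type. In RNA of a whole organ, fewer cells of a type and less RNA per cell cannot be told apart.

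Peritubular myoid cells are flat, contractile cells that surround each seminiferous tubule, and their slow contractions move fluid and released sperm along the lumen. They share with the smooth muscle of arterioles a set of actin, myosin and actin-binding proteins, and with Sertoli cells they lay down the basement membrane between them. The vessels run in the interstitium among the Leydig cells, and their endothelium is known by junction proteins, by stored clotting factor and by the receptors for angiopoietins.

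Between 69.5% and 72.9% of the spots of an array lay well above background in the call of the scanner software, and 0 spots were saturated. Signals were used as log2 values, quantile-normalized over the 6 arrays, so that 1 unit is a doubling. For a test, every spot of a probe had to be well above background in all 3 mice of one genotype or the other, and 28606 probes of 19181 genes met this. Genotypes were compared with limma, a linear model whose error is moderated over all probes, with Benjamini-Hochberg adjustment over all of them and a threshold of 0.05. With 3 mice a genotype, the number of arrays is what limits precision. A single slide held the 3 Prss55-/- arrays and 2 further slides the wt arrays, so that no slide held both genotypes, and each slide had its own scan. A difference between genotypes therefore cannot be told apart from a difference between slides or scans. Fits with the slide as a random block do not separate genotype from slide, and are given where they change a call. Prss55 itself is read by 1 probe at chr14:64694275-64694333, whose log2 signal was 15.08, 14.95 and 14.93 in Prss55-/- replicates 1 to 3 and 15.87, 15.77 and 16.01 in wt replicates 1 to 3. It was lower in Prss55-/- testis by a log2 difference of -0.90 (standard error 0.080, limma adjusted p = 0.010). The part of the gene that the targeting removed is not given in the sources used here, so it is unknown whether this probe lies inside it. Germ cell markers were bright on all arrays, with 11 of 11 tested and a mean log2 signal between 15.20 and 15.30, whereas 2 of 8 epididymis markers reached the level needed for a test.

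Each probe is an oligonucleotide of 60 bases, with positions given by the array files on build mm9. Of the 20 probes, 4 span an exon junction, and the others lie in a single stretch of the genome. The 6 probes printed here were chosen among those in the coding part of their transcripts. The Des probe ends 4 bases past the stop codon, which is in capitals.
Acta2, chr19:34322995-34326249, minus strand: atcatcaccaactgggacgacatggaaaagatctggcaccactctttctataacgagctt
Myh11, chr16:14195223-14198147, minus strand: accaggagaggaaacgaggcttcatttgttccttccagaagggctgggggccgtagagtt
Tagln, chr9:45738916-45738975, minus strand: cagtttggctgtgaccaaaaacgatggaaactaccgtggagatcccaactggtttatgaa
Des, chr1:75363404-75363629, plus strand: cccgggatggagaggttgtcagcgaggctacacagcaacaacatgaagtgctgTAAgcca
Pecam1, chr11:106542389-106544242, minus strand: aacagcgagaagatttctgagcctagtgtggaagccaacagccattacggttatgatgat
Vwf, chr6:125635858-125635917, plus strand: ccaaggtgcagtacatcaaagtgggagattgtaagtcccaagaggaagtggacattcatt
The probes for Acta2, Myh11, Des and Pecam1 in this group cross an exon junction and so match spliced RNA. The coding sequences of the actins are close to one another, so the Acta2 probe printed here may also read other actins, and its signal cannot be told apart from theirs. The brightest Acta2 probe lies further along the transcript, from base 1278, at chr19:34316060-34316119.

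None of the 9 member genes that could be tested passed the adjusted threshold. The background for that call was 1.39% of all genes tested. That share moved with the arrays, to 3.4% without Prss55-/- replicate 1 and 0.156% without Prss55-/- replicate 3, while the members' count stayed at 0. Over all tested probes, Prss55-/- replicate 1 correlated at 0.9935 and 0.9945 with the other Prss55-/- arrays, which correlated at 0.9973 with each other. The lowest limma adjusted p over the 15 tested member probes was 0.256 and the highest 0.996. With an unadjusted p below 0.05, 1 of the 9 genes passed, Acta2, which was lower in Prss55-/- testis, where the background was 20.0% of genes in either direction and 10.2% lower. With the 2-fold change of the methods added, 0 of 9 passed, against 0.673% of all genes. The 95% intervals of the 9 genes ran from -0.40 to 0.30 on the log2 scale, which spans 24.2% lower to 23.2% higher signal. The values of every member by array, and the test of each, are given below in the order of what the proteins do.

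Acta2 encodes smooth muscle alpha actin, the thin filament protein by which peritubular myoid cells are usually recognised. Its brightest probe had log2 signals of 13.48, 13.47 and 13.58 in Prss55-/- replicates 1 to 3 and of 13.68, 13.68 and 13.58 in wt replicates 1 to 3. Prss55-/- replicates 1 and 2 were the lowest arrays, and the genotypes did not overlap, although Prss55-/- replicate 3 and wt replicate 3 were only 0.0058 apart. The difference was -0.14 (standard error 0.055), or 0.909-fold with a 95% interval from 0.828 to 0.999 (limma p = 0.0476, adjusted p = 0.256, two-sided exact permutation p = 0.1, which no comparison of 3 arrays with 3 can go below). With the slide as a random block, the unadjusted limma p was 0.054. The coding probe printed above had 13.19, 13.15 and 13.13 in Prss55-/- and 13.20, 13.16 and 13.36 in wt testis, a difference of -0.08 (limma adjusted p = 0.535) with overlapping groups. Another 2 Acta2 probes gave differences of -0.06 and -0.01 (limma adjusted p = 0.660 and 0.953), and 1 more stayed at background throughout. When the tested Acta2 probes were averaged, the difference was -0.07 (limma unadjusted p = 0.14), so that the call on Acta2 at the unadjusted threshold rested on 1 of its 4 tested probes.

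Myh11 encodes the smooth muscle myosin heavy chain, the motor of contraction in these cells. Its junction probe had log2 signals of 10.06, 10.06 and 10 in Prss55-/- and 10.09, 10.01 and 10.14 in wt testis. The 6 arrays lay within 0.14 of each other with the genotypes mixed, and the difference was -0.04 (standard error 0.055, limma adjusted p = 0.748). With normexp it was -0.0011 and without wt replicate 3 it was -0.0047.

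Cnn1 encodes calponin, which binds actin and slows the myosin motor. Its probe at chr9:21913058-21913117 had 11.48, 11.49 and 11.49 in Prss55-/- and 11.72, 11.58 and 11.54 in wt testis. The 3 Prss55-/- arrays were nearly equal, with an SD of 0.005 against 0.094 in wt, and all lay below the wt arrays. The difference was -0.13 (standard error 0.060, limma p = 0.078, adjusted p = 0.316, two-sided exact permutation p = 0.1), and it was -0.07 without wt replicate 1, the highest array. Acta2 and Cnn1 were the 2 of 9 member genes whose genotypes did not overlap, against 27.4% of all genes tested.

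Tagln encodes transgelin, an actin-binding protein that appears early in smooth muscle differentiation. Its brighter probe had log2 signals of 12.95, 12.59 and 13.16 in Prss55-/- and 12.93, 12.88 and 13.03 in wt testis. Prss55-/- replicate 2 was the lowest and Prss55-/- replicate 3 the highest of the 6 arrays, so the wt values lay inside the Prss55-/- range. The spread of this probe within genotypes, 0.21, was larger than that of 85.7% of genes tested. The printed coding probe, at 10.01, 9.76 and 10.30 in Prss55-/- and 9.97, 10.09 and 10.22 in wt testis, had the same lowest and highest arrays. The differences were -0.05 and -0.07 (limma adjusted p = 0.877 and 0.828). When Prss55-/- replicate 2 was left out, the brighter probe turned to 0.11 (limma adjusted p = 0.626), so the direction of Tagln rested on 1 array.

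Des encodes desmin, the intermediate filament of muscle cells, also found in pericytes. Its log2 signals were 6.83, 6.75 and 6.92 in Prss55-/- and 6.85, 6.90 and 6.92 in wt testis. The groups overlapped, and the difference of -0.06 (limma adjusted p = 0.635) became 0.0094 when arrays were scaled by their 75th percentile in place of quantile normalization. Without Prss55-/- replicate 2 it was -0.02.

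Pdgfra encodes the alpha receptor for platelet-derived growth factor, carried by mesenchymal cells around the tubules and in the interstitium. Its brighter probe, at chr5:75593888-75593947, had 9.43, 9.35 and 9.52 in Prss55-/- and 9.47, 9.61 and 9.40 in wt testis. The groups overlapped, with the lowest value in Prss55-/- replicate 2 and the highest in wt replicate 2, and the difference was -0.06 (limma adjusted p = 0.717). Without wt replicate 2 it was 0.0017, and without Prss55-/- replicate 2 it was -0.02. The second Pdgfra probe was well above background on 2 Prss55-/- arrays and 1 wt array and was not tested.

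**Figure D1:**
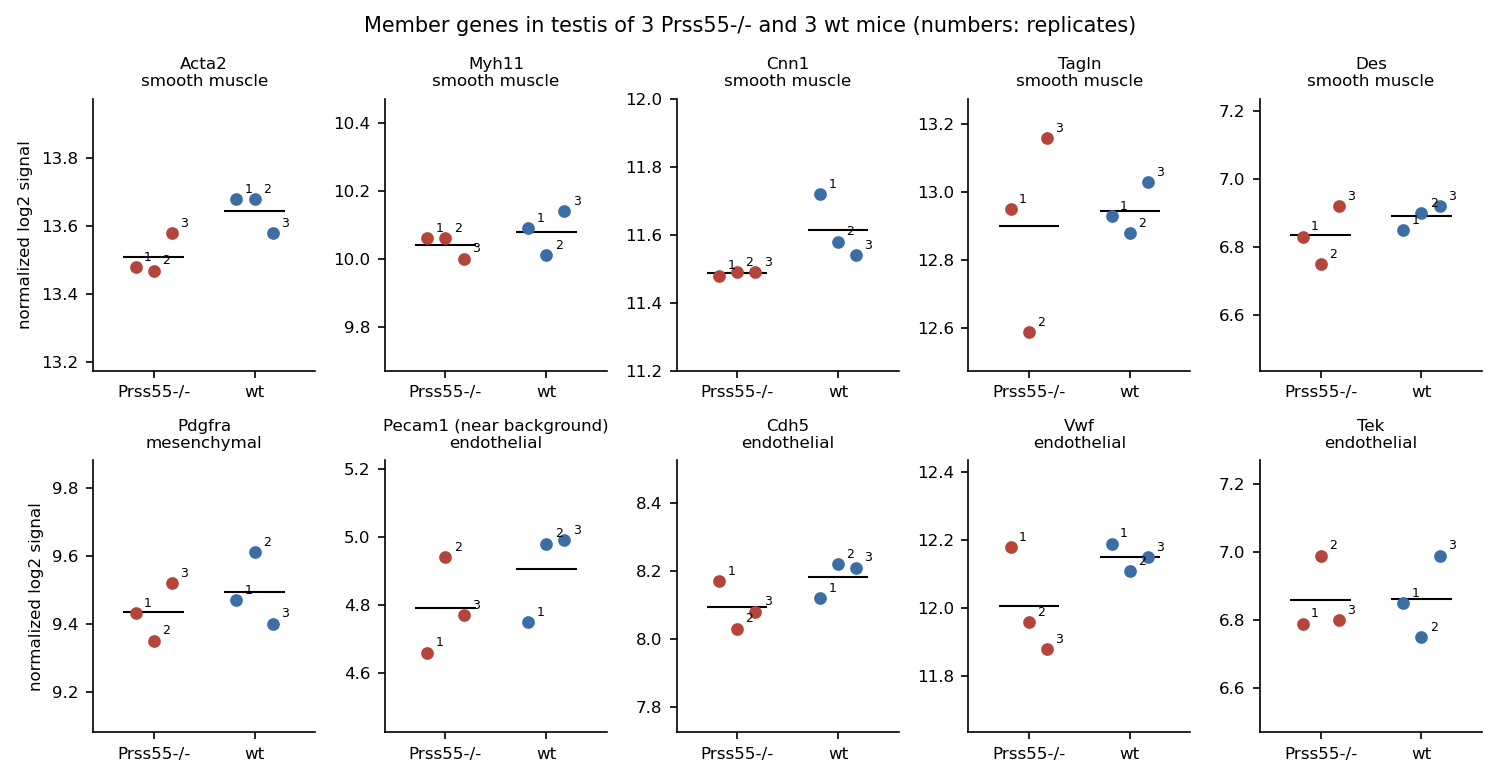
Normalized log2 signal (vertical axis) of the probe that stands for each of the 10 member genes, 1 point for each array with its replicate number, and the mean of each genotype as a line. Every panel spans the same log2 range, so distances can be set side by side, and the 2 tested genes with separate groups are Acta2 and Cnn1, while Tagln has its lowest point in Prss55-/- replicate 2.

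Pecam1 encodes a junction protein of endothelial cells and platelets. It is printed in 10 spots on each array, of which between 1 and 4 were well above background, so it was not tested. Its log2 signals were 4.66, 4.94 and 4.77 in Prss55-/- and 4.75, 4.98 and 4.99 in wt testis. These groups overlapped near the floor of the arrays, since the lowest signal called well above background was between 4.79 and 5.26 depending on the array. When a probe was let through with any spot above background, an alternative chosen after seeing the data, the difference was -0.12 (limma adjusted p = 0.563). The second Pecam1 probe stayed at background throughout. At chr11:106543058-106543117 it lies inside the stretch that the junction probe skips, so it need not read the same spliced RNA. Among the endothelial members, the tests therefore cover Cdh5, Vwf and Tek.

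Cdh5 encodes VE-cadherin, which joins endothelial cells at their adherens junctions. Its log2 signals at chr8:106668159-106668218 were 8.17, 8.03 and 8.08 in Prss55-/- and 8.12, 8.22 and 8.21 in wt testis. Prss55-/- replicate 1 lay above wt replicate 1, and the difference was -0.10 (standard error 0.058, limma adjusted p = 0.416). It was -0.02 with normexp background correction and -0.06 without Prss55-/- replicate 2. The second Cdh5 probe was above background on 1 wt array and was not tested.

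Vwf encodes von Willebrand factor, which endothelial cells store and release to bind platelets. The brighter of its probes, at chr6:125636551-125636610, had 12.18, 11.96 and 11.88 in Prss55-/- and 12.19, 12.11 and 12.15 in wt testis. Prss55-/- replicate 1 lay among the wt arrays and the other 2 below them. The difference was -0.14 (standard error 0.085, limma adjusted p = 0.403). It was -0.23 when Prss55-/- replicate 1 was left out (limma adjusted p = 0.122, past the unadjusted threshold) and -0.08 when Prss55-/- replicate 3 was left out (limma adjusted p = 0.707). The printed coding probe, with 9.59, 9.24 and 9.33 against 9.49, 9.45 and 9.59, differed by -0.13 (limma adjusted p = 0.532) and again had only Prss55-/- replicate 1 among the wt arrays.

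Tek encodes the receptor for the angiopoietins, ligands that steady or loosen the vessel wall. At chr4:94540861-94540919 its log2 signals were 6.79, 6.99 and 6.80 in Prss55-/- and 6.85, 6.75 and 6.99 in wt testis. The highest array of each genotype was level with that of the other, and the difference was -0.0044 (95% interval -0.22 to 0.21, limma adjusted p = 0.983). The second Tek probe lay within 0.10 over all 6 arrays and gave a limma adjusted p of 0.996. With 75th percentile scaling the Tek difference was 0.06, and with normexp background correction 0.05.

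**Figure D2:**
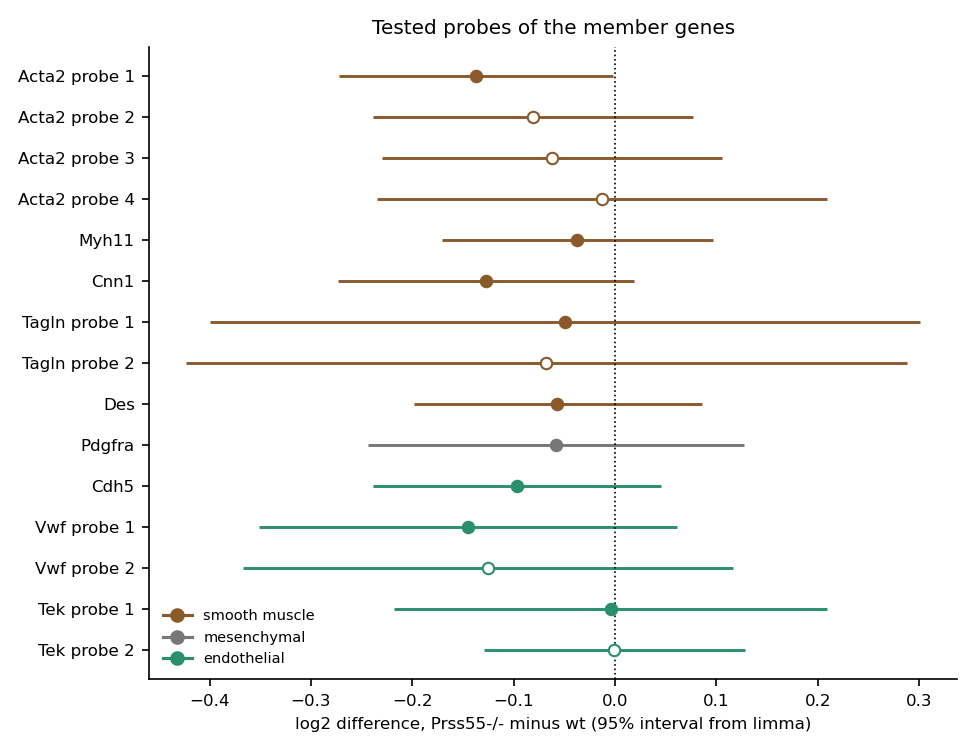
Log2 difference of Prss55-/- minus wt testis (horizontal axis) with its 95% interval from limma for the 15 tested member probes, filled for the probe that stands for the gene and open for the others. All 15 points lie at or left of 0 with quantile normalization (with 75th percentile scaling Des and Tek lie right of it), and the interval of 1 probe, the brightest of Acta2, ends below 0.

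All 9 tested genes had a log2 difference below 0, against 50.7% of all genes tested, although Des and Tek were above 0 with 75th percentile scaling and Tek also with normexp. With 75th percentile scaling the median difference over all tested probes was 0.023, against 0.002 with quantile normalization. By probe, 15 of 15 were below 0, against 49.4% of all probes, and 4 of the genes have several of these probes. The differences were small, with a median of -0.06 over the 9 genes against -0.0023 over all genes. The members share the same 6 arrays, on which genotype and slide cannot be told apart. No member lies on chromosome 14, which holds Prss55.

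Smooth muscle and endothelial genes were set side by side as the mean log2 signal of each group on each array. These means are descriptions, with no test, and their absolute size depends on the probes. The smooth muscle mean over 5 genes was 10.96, 10.87 and 11.03 in Prss55-/- and 11.05, 11.01 and 11.04 in wt testis. The means were 10.95 ± 0.078 (SD, n = 3) and 11.04 ± 0.022 (SD, n = 3), a difference of -0.08, with Prss55-/- replicate 3 inside the wt range. Without Prss55-/- replicate 2 the difference was -0.04, and without Prss55-/- replicate 3 it was -0.12. The endothelial mean over 4 genes, the dim Pecam1 included, was 7.95, 7.98 and 7.88 in Prss55-/- and 7.98, 8.02 and 8.09 in wt testis. Its difference was -0.09, from 7.94 ± 0.051 to 8.03 ± 0.056 (SD, n = 3 each), with Prss55-/- replicate 2 level with wt replicate 1. Without Pecam1 it was -0.08, with 75th percentile scaling -0.03, and with normexp -0.04. It was -0.06 without Prss55-/- replicate 3 or without wt replicate 3.

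The smooth muscle mean minus the endothelial mean cancels a factor common to all genes of an array. It was 3.01, 2.89 and 3.15 in Prss55-/- and 3.08, 2.99 and 2.96 in wt testis. Both the lowest and the highest of these values were from Prss55-/- mice. The genotype means of 3.02 ± 0.13 and 3.01 ± 0.062 (SD, n = 3 each) differed by 0.01, less than the spread within either genotype. This value was -0.04 with 75th percentile scaling and with normexp, and between -0.06 and 0.07 with each array left out, so that it had no stable direction. The median difference of the smooth muscle members was -0.06 and that of the 3 tested endothelial members -0.10.

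**Figure D3:**
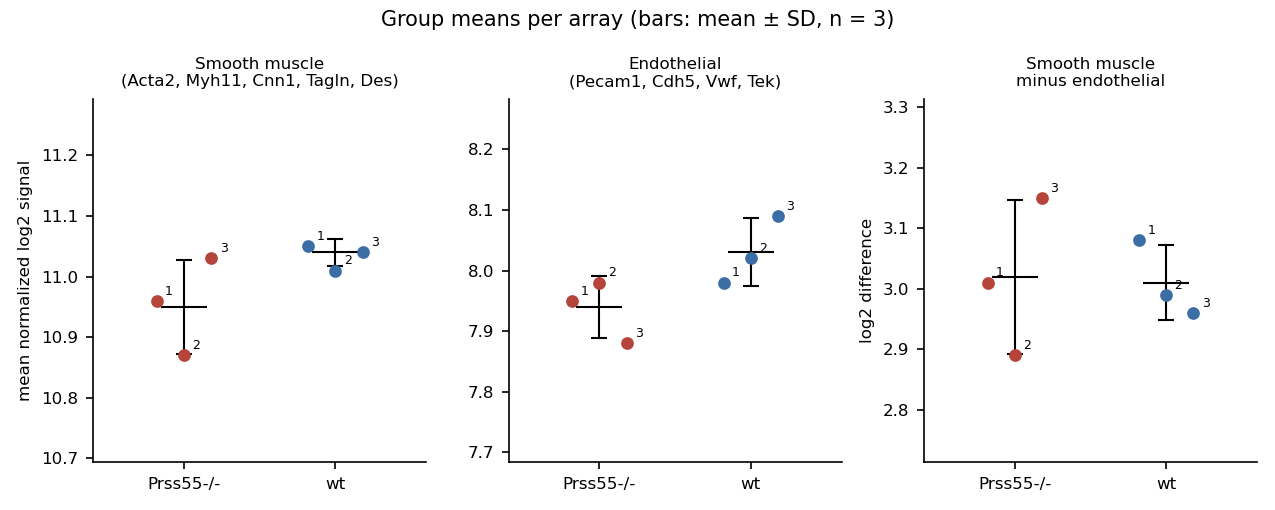
Mean normalized log2 signal of the smooth muscle genes and of the endothelial genes on each array, and the first minus the second, with points for arrays (replicate numbers beside them) and bars for the mean ± SD of 3 arrays. The genotypes overlap in every panel, and Prss55-/- replicates 2 and 3 are the lowest and highest points of the right panel.

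Prss55-/- replicate 2, which had the lowest value of 3 of the 5 smooth muscle members and of Pdgfra, stood apart in a wider group of mesenchymal genes. Of 15 tested genes of interstitial mesenchyme and extracellular matrix, 11 were lowest on this array. The share of all genes lowest on it was not computed. In other lists, 11 of 23 further contractile, 5 of 8 macrophage and 4 of 7 Leydig cell genes were lowest there. The same held for 1 of 10 Sertoli cell and 3 of 11 germ cell genes. The mean deviation of the 15 genes from each gene's own average was -0.43 on this array, against 0.02 to 0.20 on the other 5 arrays. Col1a1, a chain of type I collagen, had a log2 signal of 10.19 there and between 11.55 and 11.88 on the other arrays, which is 2.76-fold below their mean. Col3a1, the chain of type III collagen, had 11.26 there against 12.55 to 12.87. Lum, the collagen-binding proteoglycan lumican, had 6.16 there and 6.97 to 8.14 elsewhere. Col3a1 and Lum were named here after their values were seen.

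On the same array Tagln was 1.32-fold below the mean of the others and Acta2 1.09-fold, while Myh11 was level with them and Tek above them. The members were therefore not lowered alike on this array. None of the 15 matrix and mesenchyme genes passed the adjusted threshold or an unadjusted p below 0.05 between genotypes. The background for these calls was 1.39% and 20.0% of all genes, and the median difference of the 15 was -0.13. The genotypes did not overlap in 1 of the 15, against 27.4% of all genes. Lowest by p were Fbn1, which encodes fibrillin and differed by -0.27, Igfbp6, an insulin-like growth factor binding protein, at -0.20, and Col1a1 at -0.59 (limma adjusted p = 0.299, 0.322 and 0.445). Without Prss55-/- replicate 2, Fbn1 and Col1a1 each differed by -0.13. Igfbp6 differed by -0.13 without wt replicate 3. What sets this array apart was not tested.

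**Figure D4:**
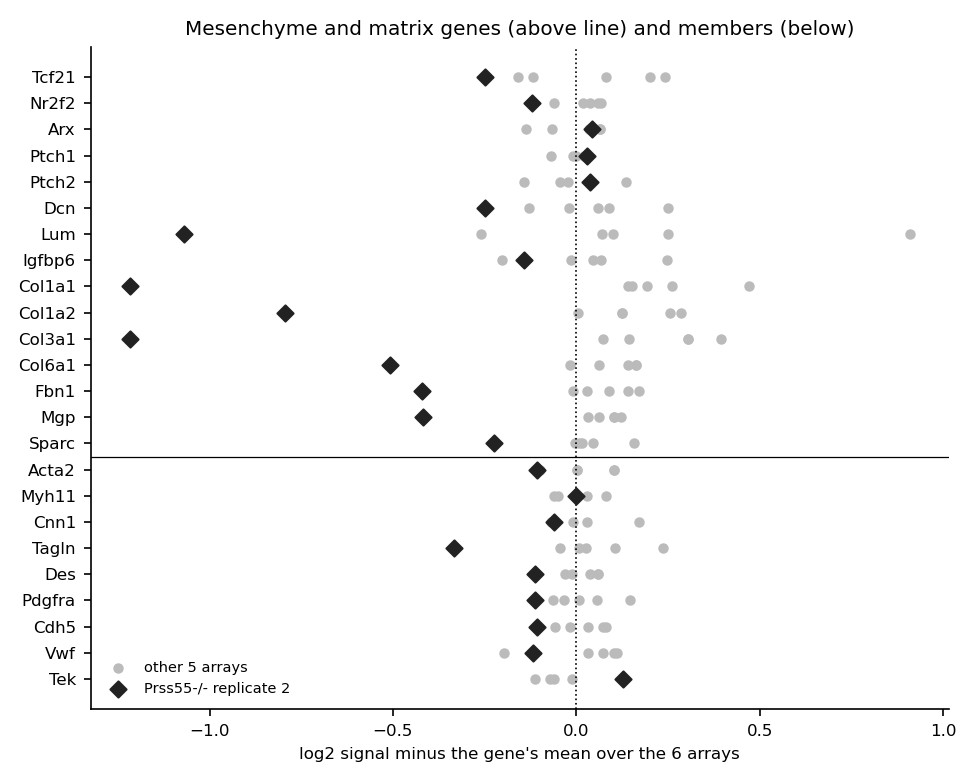
Log2 signal minus the gene's mean over the 6 arrays (horizontal axis) for 15 genes of mesenchyme and matrix and the 9 tested member genes, with Prss55-/- replicate 2 as dark diamonds and the other 5 arrays as grey points. Collagen genes and Lum lie far to the left on this array, Tagln less so, and Myh11 and Tek do not.

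Other genes of the same cells gave no call at the adjusted threshold. Of 23 further smooth muscle contractile genes tested, 0 passed the adjusted threshold, and at an unadjusted p below 0.05 there were 6 lower and 1 higher, where the background was 10.2% lower and 9.83% higher. Their median difference was -0.05. Lowest by p were Smtn, which encodes the contractile smooth muscle protein smoothelin, Flna, the actin crosslinker filamin A, and Actg2, smooth muscle gamma actin. Smtn had log2 signals of 7.51, 7.33 and 7.34 in Prss55-/- and 7.58, 7.63 and 7.76 in wt testis, a difference of -0.26 (limma adjusted p = 0.147). Flna differed by -0.15 and Actg2 by -0.27 (limma adjusted p = 0.171 and 0.173), and with normexp Smtn differed by -0.16. Among the 23 genes, 9 had genotypes that did not overlap, against 27.4% of all genes tested.

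Mural cells, the pericytes and smooth muscle of vessels, were read by 8 genes, of which 0 passed the adjusted threshold and 2 were lower at the unadjusted one (background 10.2%), with a median of -0.14. Rgs5, a G protein regulator of pericytes, differed by -0.19, Pdgfrb, the beta receptor for platelet-derived growth factor, by -0.21, and Notch3, a receptor of arterial smooth muscle, by -0.12 (limma adjusted p = 0.196, 0.204 and 0.303). The genotypes did not overlap in these 3 of the 8 genes, against 27.4% of all genes, and with normexp Notch3 differed by -0.04.

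All 9 basement membrane genes tested had a difference below 0 (50.7% of all genes), with a median of -0.14, and 3 were lower at the unadjusted threshold (background 10.2%) but 0 at the adjusted one. The genotypes did not overlap in 3 of the 9, against 27.4% of all genes. Nid2, which encodes nidogen, a linker of laminin and collagen networks, had 10.28, 10.23 and 10.19 in Prss55-/- and 10.46, 10.44 and 10.51 in wt testis. The groups were apart by more than the spread of either, and the difference was -0.24 (standard error 0.048, limma adjusted p = 0.0812). The laminin chain genes Lama2 and Lamc1 differed by -0.14 and -0.19 (limma adjusted p = 0.225 and 0.239). Lama2 differed by -0.30 with its probes averaged, and Lamc1 by -0.12 without Prss55-/- replicate 2.

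Among 29 further endothelial genes tested, 0 passed the adjusted threshold, with 7 lower and 1 higher at the unadjusted one (background 10.2% and 9.83%) and a median of -0.09. The genotypes did not overlap in 8 of the 29, against 27.4% of all genes. Eng, which encodes endoglin, a receptor component for TGF-beta family ligands, had 7.95, 7.99 and 8.01 in Prss55-/- and 8.24, 8.24 and 8.15 in wt testis. Its groups did not overlap, and the difference was -0.23 (standard error 0.049, limma adjusted p = 0.0909). Robo4, a guidance receptor of endothelium, differed by -0.26, while Selp, the gene of P-selectin, an adhesion protein stored with von Willebrand factor, was higher by 0.35 (limma adjusted p = 0.138 and 0.112). With normexp Selp differed by 0.23. Selp lay in the opposite direction from Vwf, whose product shares its storage granule.

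The ligands and receptors of PDGF, VEGF and angiopoietin signalling were read by 17 tested genes, of which 0 passed the adjusted threshold, with 3 higher and 4 lower at the unadjusted one (background 9.83% and 10.2%) and a median of -0.01. The genotypes did not overlap in 7 of the 17, against 27.4% of all genes. Pgf, which encodes placental growth factor, a ligand of the VEGF family, had 8.42, 8.35 and 8.13 in Prss55-/- and 7.76, 7.68 and 7.83 in wt testis. Every Prss55-/- array lay above every wt array, and the difference was 0.54 (standard error 0.088, limma adjusted p = 0.0544). Among probes well above background on all 6 arrays, where fewer probes were tested, its limma adjusted p was 0.0476. It was 0.0489 with the probes of each gene averaged, 0.116 with no filter and 0.193 with the replicate number as a block. Pdgfb, a ligand of the PDGF receptors, was well above background on all 3 Prss55-/- arrays and on 0 wt arrays. Its mean log2 signal was 5.77 in Prss55-/- testis and 4.01 in wt testis, and set against the lowest signal above background on the wt arrays it was at least 1.63-fold higher. Pdgfb entered the test only through the genotype where it was high, and all its wt values lay below that lowest signal. It is among the 3 genes counted as higher, and its p is not used as support. Pdgfa, a ligand of Pdgfra, differed by -0.20 (limma adjusted p = 0.127).

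Markers of other cells in the testis are given beside these values. Of 7 Leydig cell genes tested, 0 passed the adjusted threshold and 3 were lower at the unadjusted one (background 10.2%), with a median of -0.56 and the mean deviation at -0.48 and -0.36 on Prss55-/- replicates 2 and 3 against 0.18 on replicate 1. Their mean log2 signal ran from 10.90 to 11.56 in Prss55-/- and from 11.39 to 11.71 in wt testis. The genotypes did not overlap in 1 of the 7, against 27.4% of all genes. Hsd3b1, Cyp17a1 and Hsd17b3, enzymes of androgen synthesis, differed by -0.67, -0.38 and -0.50 (limma adjusted p = 0.0715, 0.229 and 0.235), with Hsd17b3 at -0.32 without wt replicate 1. All 8 macrophage genes were below 0 (50.7% of all genes), with a median of -0.18 and 3 lower at the unadjusted threshold (background 10.2%). These were Cd163, Cd68 and Cd14 at -0.40, -0.24 and -0.32 (limma adjusted p = 0.185, 0.210 and 0.259), with Cd163 at -0.17 with normexp. The mean log2 signal of the 8 genes was 8.84 to 9.0 in Prss55-/- and 9.06 to 9.28 in wt testis. That mean did not overlap, but gene by gene the genotypes were apart in 2 of the 8, against 27.4% of all genes.

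Sertoli cell genes had a median of -0.04, with 1 of 10 higher and 2 lower at the unadjusted threshold (background 9.83% and 10.2%). Fshr, the receptor for follicle-stimulating hormone, differed by -0.27, Rhox5, a homeobox gene, by 0.26, and Dhh, the hedgehog ligand that peritubular cells receive, by -0.15 (limma adjusted p = 0.0732, 0.0989 and 0.195). Germ cell, blood and epididymis markers gave 0 adjusted calls among 11, 5 and 2 genes, with medians of -0.01, -0.05 and 0.26. At the unadjusted threshold the germ cell markers had 3 higher and 1 lower, the blood markers 1 higher and 1 lower, and the epididymis markers 0, against the same background. Genotypes did not overlap in 4 of 10 Sertoli cell, 4 of 11 germ cell, 0 of 5 blood and 0 of 2 epididymis genes (27.4% of all genes). The mean log2 signal of the Sertoli cell genes was 11.24 to 11.34 in Prss55-/- and 11.32 to 11.34 in wt testis. The part that Leydig cell or macrophage RNA has in the differences of the members was not tested.

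**Figure D5:**
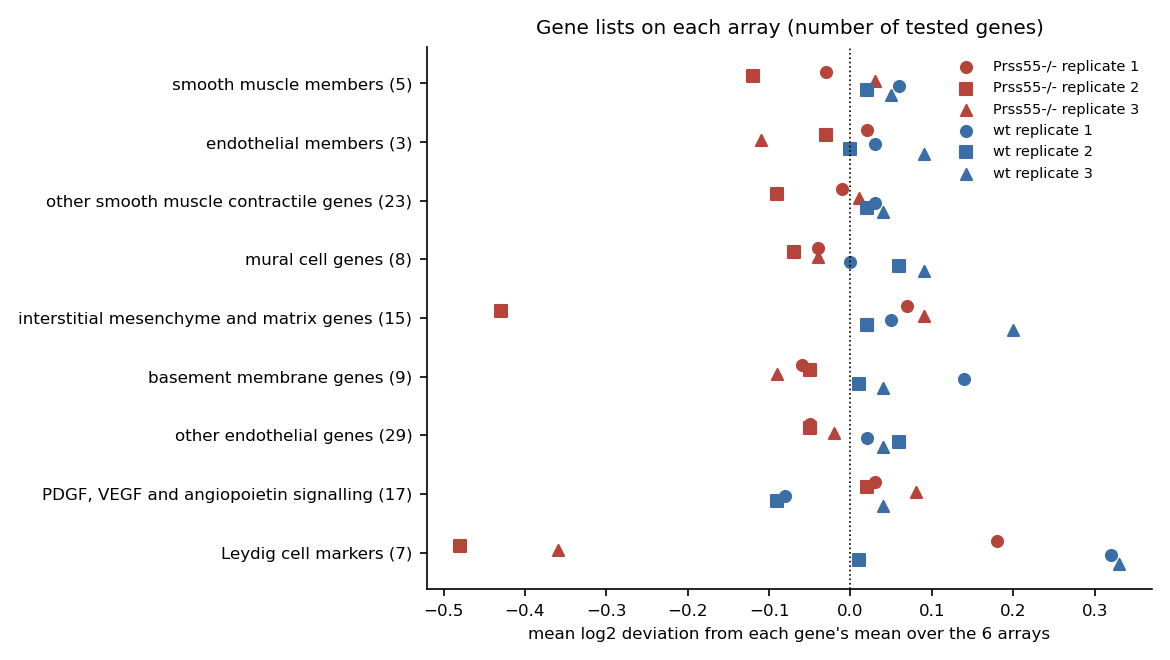
Mean log2 deviation from each gene's mean over the 6 arrays (horizontal axis) for lists of genes (number of tested genes in brackets), with red symbols for Prss55-/- and blue for wt arrays and the symbol shape for the replicate. Drawn are the smooth muscle and endothelial members and the further lists from contractile to Leydig cell genes. Pdgfra and the Sertoli cell, macrophage, blood, epididymis, germ cell and immediate early lists are not drawn. The mesenchyme and matrix list lies at -0.43 on Prss55-/- replicate 2, and the Leydig cell list lies at -0.48 and -0.36 on Prss55-/- replicates 2 and 3.

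The brightest Acta2 and Pdgfra probes and the probes of Des and Pecam1 are each printed in 10 spots on an array, which gives the error of measuring within an array. The SD between spots averaged 0.054 for Acta2, 0.048 for Pdgfra, 0.12 for Des and 0.29 for Pecam1. The standard error of the 10-spot mean was therefore 0.017 for Acta2, 0.015 for Pdgfra, 0.038 for Des and 0.091 for Pecam1. The SD between the 6 array means, which also holds the spread between mice, was 0.091, 0.093, 0.065 and 0.14.

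RefSeq promoter windows on GRCm38.p6, from 250 bases before to 50 after the start, were at hand for Des, Tek, Pdgfra, Cnn1 and Acta2. They were searched on both strands for the CArG box, which is CC, 6 bases of A or T, and GG, the element bound by serum response factor in muscle genes, and for CAGGAA, a form of the element bound by Ets factors. The CArG box was in 0 of 5 member windows and in 1.63% of all 32851 windows. Only exact matches in these windows were counted, so 0 does not show that the element is absent from these genes. CAGGAA was in 3 of 5, those of Des, Tek and Pdgfra, and in 30.6% of all windows. A match of letters in a window is a description and not a bound site.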

How the data were processed

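The 6 arrays, 3 for each genotype, were labelled with 1 dye. For every array the authors deposited scanner tables (Agilent Feature Extraction 10.7, from the submitters' processing notes), in which the processed signal is a linear intensity corrected for background within the array. A table of log2 values of the same arrays was deposited too, quantile-normalized per the study's methods, which was used as an alternative.

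Control spots were left out, outlier spots were set aside, signals below 1 were set to 1, and log2 intensities were quantile-normalized and averaged over the spots of a probe. Fits were made in R 4.3.3 with the lmFit and eBayes functions of limma 3.58.1, two-sided, and were checked on simulated data. The brightest tested probe stood for a gene. Permutation tests used scipy 1.17.1, and plots matplotlib 3.10.9, under Python 3.11.15 with pandas 2.3.3.

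The members and lists were chosen with earlier results of these data known. All 10 members were named, and from each further list every gene past the adjusted threshold and the 3 of lowest p, except that blood, epididymis and germ cell lists are given by counts. Col3a1 and Lum do not meet this rule and were added after their values were seen. Podxl is named for its call in an alternative. Alternatives covered scaling, background, filter, test, slide, replicate block and left-out arrays. The array header gives build mm9. RefSeq names and promoters are of GRCm38.p6, and no coordinates were moved between builds. The wet laboratory data of the study were not analysed here.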

Additional observations from a re-analysis of the deposited data

How the results depend on the processing

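No member gene passed the adjusted threshold under any of the alternatives run, where the lowest limma adjusted p was 0.122, that of Vwf without Prss55-/- replicate 1. Of 145 member values under alternatives, 137 kept their direction and 8 reversed. With 75th percentile scaling Des became 0.0094 and Tek 0.06, the endothelial mean differed by -0.03, and Tek became 0.05 with normexp. The median over all tested probes was 0.023 with 75th percentile scaling and 0.002 in the main setting. With 1 array left out, Tagln ran from -0.18 to 0.11, Pdgfra from -0.11 to 0.0017 and Tek from -0.07 to 0.06. The count of members at an unadjusted p below 0.05, 1 in the main setting, was 0 with slide as a random block, 0 with the probes of a gene averaged, and 0 to 2 with 1 array left out (Acta2 and Cnn1 without wt replicate 3). It was 1 with normexp too, but the gene was Cnn1, and 1 without Prss55-/- replicate 1, where it was Vwf and not Acta2. The endothelial mean differed by -0.04 with normexp. The methods' t-test gave 1 at the unadjusted threshold and 0 after Benjamini-Hochberg. With 1 array left out, adjusted calls ran from 0 to 1 in the further endothelial list (Podxl without Prss55-/- replicate 1), from 0 to 1 in the signalling list, from 0 to 2 in the Leydig cell list and from 0 to 2 in the immediate early list. The call in the signalling list was Pdgfb without wt replicate 3, a gene well above background on 0 wt arrays. Among probes well above background on all 6 arrays the signalling list gave 1 call, Pgf, whose adjusted p was also below 0.05 with the probes of a gene averaged, and with normexp the Leydig cell list gave 1, Hsd3b1. The immediate early list gave 0 calls with the methods' t-test. The causes were not tested.

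Replicate numbers are shared by the genotypes but did not pair the arrays, since same-numbered arrays deviated together at correlations of -0.054, -0.023 and -0.112. With the replicate block in limma, 0 members passed the adjusted threshold, 0 passed the unadjusted one and the immediate early list gave 0 calls, while 13 probes of all tested passed against 346 without the block.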

Other observations

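Immediate early genes, which cells switch on within a short time of a stimulus, gave the only adjusted call in the further lists. That was 1 of the 10 genes tested in this list, where the background was 1.39% of all genes. Fosb, a subunit of the AP-1 factor, had log2 signals of 5.22, 5.37 and 5.43 in Prss55-/- replicates 1 to 3 and its wt mean was 6.35 ± 0.13 (SD, n = 3). It fell by 1.01 on the log2 scale (limma adjusted p = 0.0093), with every Prss55-/- array below every wt array. The Prss55-/- values were not far above the lowest signal called well above background, which was 4.79, 5.21 and 4.81 on Prss55-/- replicates 1 to 3. The adjusted p was 0.0653 with the replicate block, 0.0534 without Prss55-/- replicate 2, 0.0564 without Prss55-/- replicate 3 and 0.0713 with the methods' t-test. With normexp background correction the difference was -0.44 (limma adjusted p = 0.0285). Jun and Ier3 differed by -0.30 and -0.35 (limma adjusted p = 0.108 and 0.190), and the median of the 10 genes tested was -0.09. The genotypes did not overlap in 4 of the 10, against 27.4% of all genes.

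The named genes whose log2 signal over the 6 arrays ran most like that of Acta2 were Sult1a1, Srebf2, Stxbp4, Six5 and Runx1t1, with Pearson correlations of 0.996 to 0.988 among 16197 genes compared. Cnn1 followed Acta2 at 0.80 and Pdgfra at 0.73, while Myh11 was at -0.12 and Tek at -0.39. Tagln ran closest to Des among the members, at 0.86, a comparison chosen after the values of Tagln were seen. For the dim Pecam1 probe the nearest were Mrpl49, 4930524L23Rik, St6galnac2, Polr1d and Ccdc86, at 0.988 to 0.968. These values rest on 6 arrays that share their slides and normalization, and are descriptions.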
